A study of Mus musculus with 18 samples.

Results

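Neural progenitor, Id and Hes genes were followed in the cochlear nucleus of the mouse, where the auditory nerve enters the brainstem, over the weeks after birth in which hearing begins. The members were 17 probe sets for 10 genes (Vim, Nes, Fabp7, Sox2, Hes1, Hes5, Id1, Id2, Id3 and Id4), out of 22690 on the oligonucleotide array. They were listed by their probe set identifiers, and the list was chosen with earlier results of these data known. The gene names came with that list of identifiers, since the deposited table pairs no probe set with a gene. Of the 17, 16 were bright enough to be tested, among 15296 tested in all. The exception was one of the pair of probe sets for Nes.

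Cochlear nuclei of C57BL/6J mice, with no treatment named in the labels, were measured at postnatal day 7 (P7, 3 arrays), day 14 (P14, 2 arrays) and day 21 (P21, 3 arrays). Each array carried RNA pooled from 5 pups. The labels do not say that the pools of an age came from separate pups, so the p-values measure only the spread between these arrays, part of which may be technical. A second platform, a spotted cDNA array, was not used here because its spots are not paired with genes.

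Neural progenitors and radial glia line the ventricles of the embryonic brain and are recognised by the filament proteins vimentin and nestin, the fatty acid binding protein Fabp7 and the transcription factor Sox2. Notch signalling holds such cells undifferentiated by inducing Hes1 and Hes5, which repress proneural genes. Id proteins lack a DNA-binding region and act by capturing the E proteins that proneural factors need, and several of them are induced by BMP signalling. After birth most of these genes remain active in astrocytes or their precursors, and Vim, Nes, Id1 and Id3 are also known in blood vessel cells. Marker genes of those cell types were not analysed here, because the deposited table names no probe sets for them.

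Depth and quality could be read from the signals and the control probe sets. Log2 signals of arrays of 1 age correlated at 0.966 to 0.9825 across probe sets. The ratio of the 3′ to the 5′ control signal, a sign of RNA integrity, was 0.782 to 0.904 for Gapdh and 1.009 to 1.169 for beta-actin over the 8 arrays. It was higher for the other controls, at 1.865 to 3.093 for pyruvate carboxylase and 2.9 to 5.229 for the transferrin receptor. The 5′ signal of the 18S ribosomal control was 155 to 3530 at P7, 38.6 and 43.6 at P14, and 944 to 6137 at P21, and its part in the results was not tested. Each array also carried 1 of 4 bacterial poly-A controls, and the signals of those not found on an array had a median of 4.2, a 95th percentile of 24.6 and a maximum of 49.1.

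Between P21 and P7, Fabp7, Vim, Hes5, Sox2, Id3 and Id1 fell, Id2 rose, and Nes, Hes1 and Id4 did not pass the test. The call for Id1 was lost in 12 of 19 alternative fits. Of the 16 probe sets tested, 11 (7 genes) passed, 9 of them lower and 2 higher at P21, at a limma adjusted p under 0.05. Over all probe sets 38.6% passed, 21.5% lower and 17.1% higher. The count includes both Hes5 probe sets, which passed the filter on low signal only through P7, and 9 of the other 14 passed, 7 lower and 2 higher. The arrays of P21 and P7 did not overlap in 12 of the 16, against 49.5% of all probe sets. The median log2 change of the 16 was -0.73, beside -0.02 over all probe sets tested. This median and the 12 of 16 also include both Hes5 probe sets, whose difference was built into their being tested. The members were chosen with earlier results of these data known, so these counts do not test the list. Probe sets listed for 1 gene may measure the same transcripts, so the 16 cannot be counted as independent, though not all such sets agreed. In whole tissue fewer cells of a type and less RNA per cell cannot be told apart.

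Between P14 and P7 the same test called 9 of the 16 (6 genes), 8 lower and 1 higher at P14 (7 of the 14 other than Hes5), where 29.6% of all probe sets passed, 16.7% lower and 12.9% higher. Between P21 and P14 it called 3 (Fabp7 and Id3 lower and 1 of the pair for Id2 higher at P21), where 2.05% of all passed, 1.2% lower and 0.843% higher. With arrays scaled to a common median in place of a trimmed mean, the median of all probe sets between P14 and P7 was 0.068, against -0.074, and 65% of the calls were higher at P14, against 43.5%. Of the calls between P21 and P14, 20.6% were then higher, against 41.2%, and of those between P21 and P7 53% were higher, against 44.4%. Both comparisons with P7 use the same 3 P7 arrays, and the plot of changes sets each comparison's own values side by side.

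**Figure D1:**
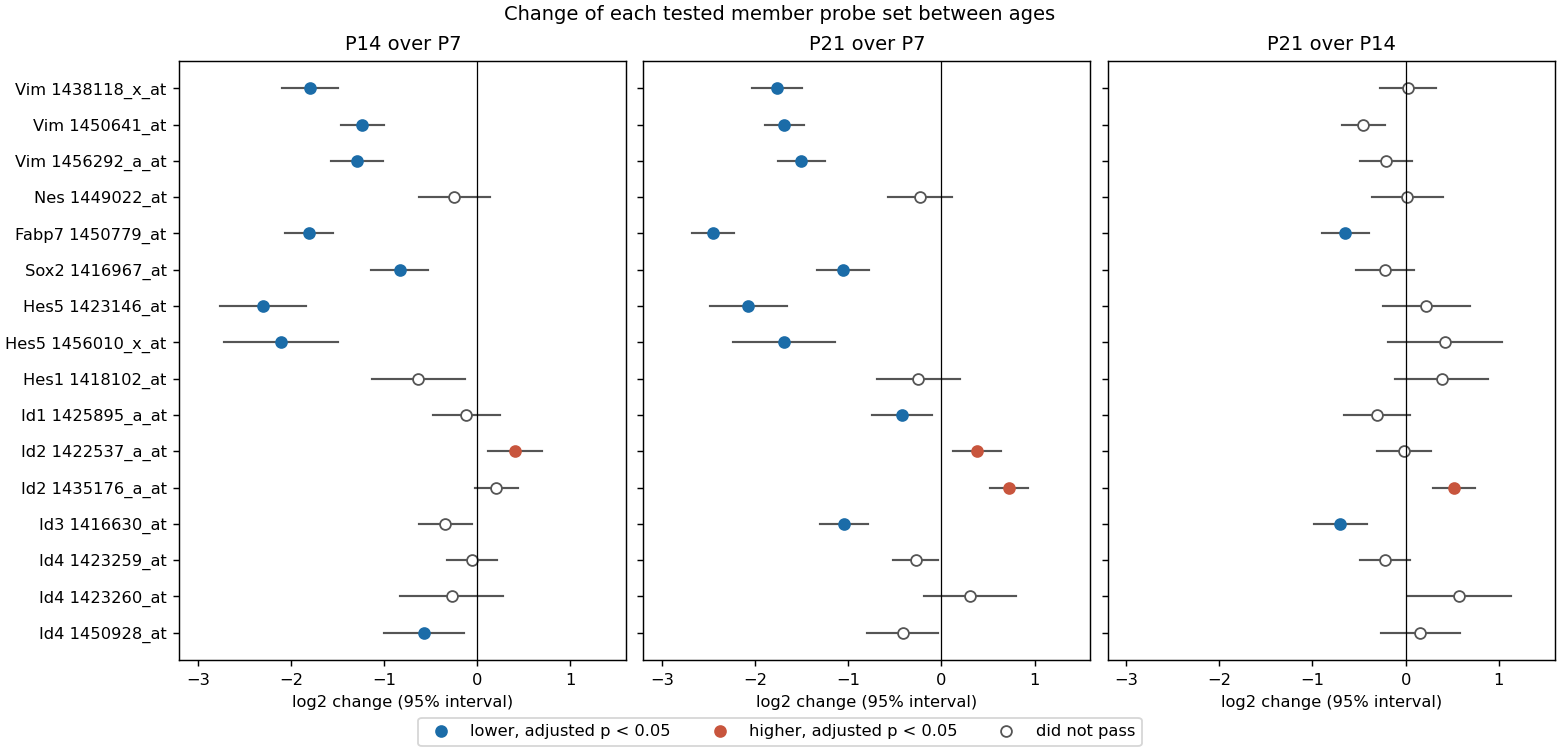
Log2 change of each of the 16 tested probe sets, P14 over P7, P21 over P7 and P21 over P14, on the log2(signal + 12.5) scale, with 95% intervals from the limma fit over 8 arrays. Blue points are lower and red points higher at the later age at an adjusted p under 0.05, and open points did not pass. Fabp7, Vim, Hes5 and Sox2 lie far to the left in both comparisons with P7 and nearer to 0 between P21 and P14, where Fabp7 lies at -0.65, Vim 1450641_at at -0.45 and Hes5 1456010_x_at at 0.42.

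Fabp7, which codes for the brain lipid binding protein of radial glia and immature astrocytes, had the most negative log2(signal + 12.5) change of the members between P21 and P7, on a scale that compresses the fall of Hes5 to signals like those of absent controls. Probe set 1450779_at gave signals of 5418, 6245 and 6496 at P7, 1584 and 1851 at P14, and 1059, 1038 and 1178 at P21. The 3 ages did not overlap. The signal averaged 1092 ± 75.6 at P21 and 6053 ± 564 at P7 (SD, n = 3 each), which is a log2 difference of -2.46 (SE 0.10, limma adjusted p = 5.77e-07), or 5.48-fold lower at P21. Fold changes here are on the log2(signal + 12.5) scale, which understates changes of dim probe sets. Ordered from the most negative change, Fabp7 ranked 61 of the 15296 probe sets tested.

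Most of that fall lay before P14. Fabp7 averaged 1718 ± 189 (SD, n = 2) at P14, and its log2 change from P7 was -1.81 (SE 0.12, limma adjusted p = 1.34e-05). The change from P14 to P21 was -0.65 (SE 0.12, limma adjusted p = 0.0285). The change before P14 minus that after P14 was -1.16 on the log2 scale (SE 0.21, limma adjusted p = 0.0121), in a contrast that 8.01% of all probe sets passed, 4.08% with a negative and 3.93% with a positive difference. It was passed by 6 of the 16 member probe sets, all negative, and by 4 of the 14 other than Hes5, whose probe sets were tested only because of their P7 signal. By P14, 0.737 of the change had been reached, and this share was 0.692 to 0.7825 when any 1 array was left out. A block for the poly-A control ended the call for the difference between intervals, which was then -1.06. Without P14 replicate 1 or 2 the difference between intervals did not pass (-0.94 and -1.39, adjusted p 0.143 and 0.0766), the lone P14 array being assumed to vary like the others. Without P14 replicate 1 or P14 replicate 2 the call between P21 and P14 was lost, with log2 changes of -0.76 and -0.53 and adjusted p of 0.101 and 0.231, and it was also lost without P21 replicate 2 (-0.61, adjusted p = 0.0717).

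Vim codes for vimentin, an intermediate filament protein of radial glia, immature astrocytes, vessel and meningeal cells, and it was lower after P7 with each of its 3 probe sets. The brightest, 1450641_at, gave 2245, 2699 and 2466 at P7, 996 and 1087 at P14, and 730, 759.8 and 782 at P21. The ages did not overlap, and each array of a later age lay below each array of an earlier one. The log2 change from P7 to P21 was -1.69 (SE 0.09, limma adjusted p = 1.59e-06), 3.22-fold lower at P21, and that from P7 to P14 was -1.23 (SE 0.10, limma adjusted p = 4.75e-05).

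Probe set 1438118_x_at read 1084, 906 and 979.6 at P7, 285 and 266 at P14, and 330.2, 261 and 256 at P21. P14 and P21 overlapped, and both lay far below P7. Its log2 change was -1.79 at P14 (SE 0.14) and -1.77 at P21 (SE 0.12), both against P7 (limma adjusted p = 2.79e-05 and 5.11e-06), and 0.02 between P21 and P14 (95% interval -0.28 to 0.33). In the maker's naming, the _x_ marks a probe set some of whose probes may also bind other transcripts. The third, 1456292_a_at, read 451, 499 and 424 at P7, 192 and 167 at P14, and 148, 163 and 149 at P21, with P21 differing from P7 on the log2 scale by -1.50 (SE 0.11, limma adjusted p = 8.54e-06).

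The Vim probe sets thus placed the lower signal at both later ages and none passed between P21 and P14. The log2 change from P14 to P21 was -0.45 for 1450641_at (limma adjusted p = 0.055), -0.21 for 1456292_a_at (adjusted p = 0.396) and 0.02 for 1438118_x_at (adjusted p = 0.942). The P21 and P14 arrays did not overlap for the first and second of these. The first passed with a stricter filter (adjusted p = 0.0484), with median scaling (-0.54, adjusted p = 0.0352) and without P7 replicate 1 (adjusted p = 0.0423). In the same order, 0.731, 0.860 and 1.01 of the whole change had been reached at P14. For all 3 the change before P14 was the more negative, by -0.78, -1.08 and -1.82 on the log2 scale (limma adjusted p = 0.0341, 0.0219 and 0.00455). Without P14 replicate 1, 1450641_at and 1456292_a_at did not pass (-0.66 and -1.27, adjusted p 0.258 and 0.0928), and without P14 replicate 2 none of the 3 did (-0.90, -0.89 and -1.72, adjusted p 0.154, 0.217 and 0.0766). For 1450641_at the call was also lost without P7 replicate 2 or 3 or P21 replicate 3 (adjusted p 0.0593 to 0.0633). Median scaling (-0.545, limma adjusted p = 0.1145) and a fit with no trend (limma adjusted p = 0.0724) ended it too. A block for the poly-A control ended the calls of 1450641_at and 1456292_a_at, with differences of -0.71 and -1.09.

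Nes codes for nestin, the filament protein after which neural stem cells are often identified, and it did not pass the test in any comparison. Probe set 1449022_at read 242, 217 and 197 at P7, 169.8 and 193 at P14, and 174.5, 228 and 155 at P21. P21 and P7 overlapped, with P21 replicate 2 above 2 of the 3 P7 arrays. The log2 change from P7 to P21 was -0.23 (95% interval -0.57 to 0.11, limma adjusted p = 0.262), so a fall of the size seen for Vim lay outside the interval. The other probe set for Nes, 1453997_a_at, had signals of 0.9 to 4.3 on the 8 arrays, as low as absent poly-A controls, and was not tested.

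Sox2, a transcription factor that maintains progenitors and is retained in many glial cells, read 588, 589.6 and 549.8 at P7, 328 and 306 at P14, and 328, 246 and 243 at P21. All later arrays lay below all P7 arrays, and P14 and P21 overlapped. The signal of 1416967_at averaged 272 ± 48.1 at P21 and 576 ± 22.5 at P7 (SD, n = 3 each), which is a log2 difference of -1.06 (SE 0.12, limma adjusted p = 0.000111). At P14 the log2 change from P7 was -0.84 (SE 0.14, limma adjusted p = 0.00173), and from P14 to P21 it was -0.22 (SE 0.14, limma adjusted p = 0.416). The change before P14 was not shown to differ from that after it (difference -0.61, limma adjusted p = 0.156).

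**Figure D2:**
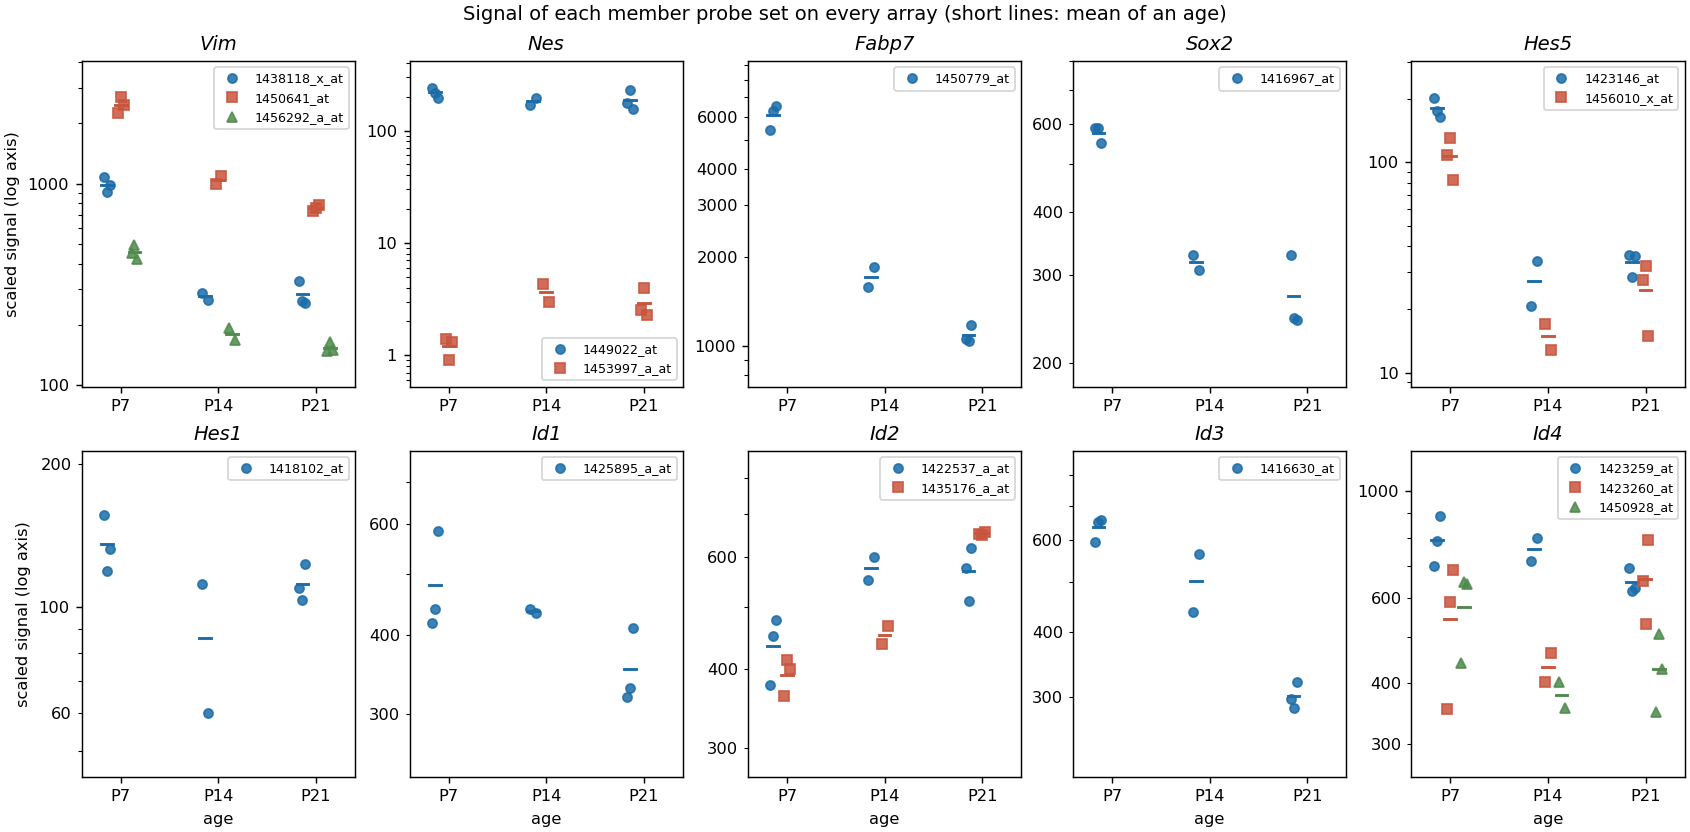
Scaled signal of all 17 member probe sets on each of the 8 arrays, on log axes that differ between genes, at P7 (3 arrays), P14 (2) and P21 (3). Short lines are the mean of an age, and levels of different probe sets are not comparable. In Vim, Fabp7, Sox2 and Hes5 the P7 arrays stand above all later ones, while Nes 1449022_at, Hes1 and the Id4 probe sets overlap between P7 and P21 except for 1423259_at.

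Hes5, the Hes gene most closely tied to Notch activity in neural progenitors, was near the floor of the array after P7. Probe set 1423146_at read 203, 176 and 165 at P7, 20.8 and 33.8 at P14, and 36.3, 28.4 and 35.8 at P21. The other, 1456010_x_at, read 108, 131 and 82.8 at P7, 17.1 and 12.8 at P14, and 27.6, 32 and 15 at P21. With both, every P7 array lay above every later array, and P14 and P21 overlapped. All signals after P7 lay under 49.1, the highest signal of a poly-A control not found on an array. Some of them lay above and some below 24.6, the 95th percentile of those control signals.

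The log2 change of 1423146_at was -2.30 at P14 against P7 (SE 0.21, limma adjusted p = 6.4e-05) and -2.07 at P21 against P7 (SE 0.19, limma adjusted p = 2.09e-05). For 1456010_x_at these were -2.11 (SE 0.28, limma adjusted p = 0.000459) and -1.69 (SE 0.25, limma adjusted p = 0.000429). Because both passed the filter on mean signal only through their P7 arrays, a difference was built into their being tested, and their sizes depended on the pseudocount. With a pseudocount of 2.5 and of 50 the change of 1423146_at at P21 was -2.35 and -1.47, and that of 1456010_x_at was -2.04 and -1.07.

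From P14 to P21 the log2 change of 1423146_at was 0.22 (95% interval -0.24 to 0.69) and that of 1456010_x_at was 0.42 (95% interval -0.19 to 1.03), and neither passed. The contrast of the change before P14 with that after it was -2.52 (SE 0.37, limma adjusted p = 0.0067) and -2.53 (SE 0.49, limma adjusted p = 0.0168). These sizes too depended on the pseudocount, being -2.95 and -3.24 at 2.5, and -1.70 and -1.46 at 50. Without P14 replicate 1 neither passed (-2.05 and -2.76, adjusted p 0.0787 and 0.0957), and without P14 replicate 2 1456010_x_at did not pass (-2.30, adjusted p = 0.160). With a block for the poly-A control neither passed (-2.58 and -2.78, adjusted p 0.0597 and 0.0587), nor did the change of 1456010_x_at between P21 and P7 (-1.32, adjusted p = 0.0518).

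Hes1, a Notch target that is also induced by other signals in many cell types, was dim and variable. Probe set 1418102_at read 156, 119 and 132 at P7, 112 and 60.1 at P14, and 109.9, 103.5 and 123 at P21. P21 and P7 overlapped, and the P14 mean rested on P14 replicate 2. The log2 change was -0.25 at P21 against P7 (95% interval -0.69 to 0.20, limma adjusted p = 0.361) and -0.64 at P14 against P7 (95% interval -1.13 to -0.14, limma adjusted p = 0.0564). Without P14 replicate 2 the change at P14 was -0.25 (adjusted p = 0.485), and without P14 replicate 1 it was -1.025 (adjusted p = 0.0146), in a fit that lends the lone array the spread of other ages. Whether Hes1 and Hes5 differed in their change was not tested.

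Windows upstream of the start site were searched for the core of the site bound by RBPJ, the DNA-binding partner of Notch (TGGGAA on either strand), since Hes5 is a Notch target. RefSeq windows of GRCm38.p6 were at hand for 8 of the 10 genes (all but Id1 and Hes1), and in each the 250 bases before the start were read. Hes5 held the core at 2 places, 226 and 82 bases before the start, while Fabp7 and Id4 held it at 1 place each, and Vim, Nes, Sox2, Id2 and Id3 held none. Of all 32851 windows of this length, 21.6% held the core at any number of places, and windows with repeats were not counted apart. The longer form GTGGGAA, which contains it, was found in Hes5 alone of the 8, at both places, and in 5.42% of all windows. The Hes5 window lies at chr4:154960673-154960922 (plus strand), ending before a start at 154960923 that lies inside the annotated gene (chr4:154960626-154962372). Fabp7 (chr10:57784673-57784922, plus strand) and Id4 (chr13:48260866-48261115, plus strand) are shown as the other holders of the core, and Id2 (chr12:25096093-25096342, minus strand) as the gene that rose. Each is written 5′ to 3′ along the gene, with the core in capitals on whichever strand it was found (TTCCCA where on the other strand).
Hes5: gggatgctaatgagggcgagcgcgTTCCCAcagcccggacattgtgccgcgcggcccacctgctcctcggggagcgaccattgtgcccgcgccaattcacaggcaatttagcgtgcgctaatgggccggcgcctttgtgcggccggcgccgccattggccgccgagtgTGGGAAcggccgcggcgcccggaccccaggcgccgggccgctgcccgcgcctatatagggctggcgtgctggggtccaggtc
Fabp7: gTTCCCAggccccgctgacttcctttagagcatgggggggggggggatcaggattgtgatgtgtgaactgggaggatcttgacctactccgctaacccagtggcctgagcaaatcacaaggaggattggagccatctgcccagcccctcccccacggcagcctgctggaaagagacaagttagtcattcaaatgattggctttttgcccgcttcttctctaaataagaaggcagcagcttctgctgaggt
Id4: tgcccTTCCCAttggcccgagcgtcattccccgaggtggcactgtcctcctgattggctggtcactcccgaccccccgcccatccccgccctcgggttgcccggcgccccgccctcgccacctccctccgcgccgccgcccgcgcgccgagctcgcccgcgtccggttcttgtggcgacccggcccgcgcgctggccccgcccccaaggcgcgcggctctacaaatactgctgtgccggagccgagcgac
Id2: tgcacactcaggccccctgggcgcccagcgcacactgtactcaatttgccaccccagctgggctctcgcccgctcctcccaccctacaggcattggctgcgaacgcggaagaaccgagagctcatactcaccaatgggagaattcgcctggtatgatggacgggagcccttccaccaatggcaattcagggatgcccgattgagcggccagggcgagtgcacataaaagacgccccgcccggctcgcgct

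Other motifs were searched in the same 250 bases. The E-box CANNTG, to which the E proteins held back by Id proteins bind, was in 3 of the 8 windows (Fabp7, Hes5 and Id2) and in 66.2% of all. The N-box CACNAG, a site of Hes repressors, was in Vim, Fabp7 and Id4 and in 36.7% of all. The GC-rich letters GGCGCC, a site of the Smad proteins of the BMP pathway, were in Hes5 at 4 places, in Id2 and Id4 at 1 place each, and in 9.59% of all windows. The shares of all windows count those with any match, so they give no comparison for repeated places in a window. Each motif was searched on both strands, and a match is a run of letters and no evidence of binding.

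The Id genes had smaller log2 changes between P21 and P7 than Fabp7, Vim and Hes5, and not all in 1 direction. Id3 read 596.5, 652 and 657 at P7, 436 and 565 at P14, and 298, 285.5 and 319.9 at P21. All P21 arrays lay below all others, and the P14 arrays lay between those of P7 and P21. The signal of 1416630_at averaged 301 ± 17.4 at P21 and 635 ± 33.7 at P7 (SD, n = 3 each), which is a log2 difference of -1.05 (SE 0.11, limma adjusted p = 7.09e-05). It passed between P21 and P14 (log2 change -0.70, SE 0.13, limma adjusted p = 0.029) and not between P14 and P7 (log2 change -0.35, SE 0.13, limma adjusted p = 0.0668). The difference between these intervals was not shown (0.35, limma adjusted p = 0.362).

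The call between P21 and P14 was lost without any of 6 arrays, P7 replicate 2, both P14 arrays and all 3 P21 arrays, where the log2 change was -0.88 to -0.52 and the adjusted p 0.0515 to 0.237. The change of Id3 between P21 and P7 was kept in all 19 alternatives run, at -1.19 to -0.97.

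Id2, which in the brain is found in neurons as well as glia, was the gene that rose. Probe set 1435176_a_at read 362, 413 and 399.6 at P7, 437 and 467 at P14, and 653, 649.6 and 657.5 at P21, so that the 3 ages did not overlap. It averaged 653 ± 3.97 at P21 and 391 ± 26.4 at P7 (SD, n = 3 each), which is a log2 difference of 0.72 (SE 0.09, limma adjusted p = 0.000184). Between P21 and P14 it was higher by 0.52 (SE 0.10, limma adjusted p = 0.0372), a call lost without any of 7 arrays (all but P7 replicate 1), with log2 changes of 0.47 to 0.57 and adjusted p of 0.0624 to 0.203. By P14 it had reached 0.281 of its change, or 0.215 to 0.347 when any 1 array was left out. The log2 change from P7 to P14 was 0.20 (SE 0.10, limma adjusted p = 0.169). With median scaling that change was 0.35 (limma adjusted p = 0.037), against 0.79 from P7 to P21.

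The other Id2 probe set, 1422537_a_at, read 377, 449.7 and 476.5 at P7, 552.5 and 598.5 at P14, and 577, 511 and 619 at P21. All later arrays lay above all P7 arrays, and P14 and P21 overlapped. Its log2 change was 0.38 at P21 against P7 (SE 0.12, limma adjusted p = 0.0251) and 0.40 at P14 against P7 (SE 0.13, limma adjusted p = 0.0411), with a share of 1.05 reached by P14. The first call was lost without P7 replicate 1, P21 replicate 1 or P21 replicate 3 (0.29, 0.37 and 0.32 on the log2 scale, adjusted p 0.0744, 0.0573 and 0.0874). A block for the poly-A control ended it too (0.30, adjusted p = 0.328). The second was lost without P7 replicate 1 or 2 or either P14 array (log2 changes 0.31 to 0.46, adjusted p 0.0691 to 0.215), and with that block (0.37, adjusted p = 0.0765). The pair of Id2 probe sets correlated at 0.701 over the 8 arrays and whether they differed in their timing was not tested.

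Id1, a BMP target known in vessel cells and astrocytes, fell by a small amount. Probe set 1425895_a_at read 418, 440.4 and 585 at P7, 441 and 435 at P14, and 320.1, 331 and 412 at P21. All P21 arrays lay below all P7 arrays, but the nearest were P21 replicate 3 at 412 and P7 replicate 1 at 418. The log2 change from P7 to P21 was -0.42 (SE 0.14, limma adjusted p = 0.0399). It did not pass in 12 of the 19 alternatives, where the adjusted p reached 0.151 without P7 replicate 3 (log2 change -0.28). Without P7 replicate 2, P14 replicate 1 or 2, or P21 replicate 1 or 2, the log2 change was -0.48 to -0.36 and the adjusted p 0.05415 to 0.114.

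Id4, which is linked to the precursors of oligodendrocytes and to astrocytes, passed with none of its 3 probe sets between P21 and P7, and these did not share a sign. Probe set 1423259_at read 698, 786 and 887 at P7, 716 and 800.3 at P14, and 693, 621 and 631 at P21, with P21 differing from P7 on the log2 scale by -0.28 (SE 0.11, limma adjusted p = 0.0693). Probe set 1423260_at read 354, 590.3 and 685 at P7, 402 and 461 at P14, and 651, 531 and 790.5 at P21, with a difference of 0.30 (SE 0.22, limma adjusted p = 0.308). Probe set 1450928_at read 441, 648 and 641 at P7, 403 and 355 at P14, and 349.5, 506 and 429 at P21, with a difference of -0.41 (SE 0.17, limma adjusted p = 0.0826). P7 replicate 1 was the lowest P7 array with each of them, and P21 and P7 overlapped except for 1423259_at.

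The single Id4 call was for 1450928_at between P14 and P7, at -0.57 on the log2 scale (SE 0.19, limma adjusted p = 0.047). It was lost in 11 of 19 alternatives, among them those without P7 replicate 2 or 3, either P14 array or P21 replicate 3 (log2 changes -0.66 to -0.48, adjusted p 0.0653 to 0.231). Without P7 replicate 1, the array lowest for all 3, 1423259_at and 1450928_at passed between P21 and P7 with log2 changes of -0.36 and -0.59 (adjusted p 0.0267 and 0.0124), and 1423260_at passed between P14 and P7 at -0.55 (adjusted p = 0.0471). Over the 8 arrays the Id4 probe sets correlated with each other at 0.00271 to 0.392, against 0.944 to 0.983 for the Vim probe sets and 0.941 for those of Hes5.

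**Figure D3:**
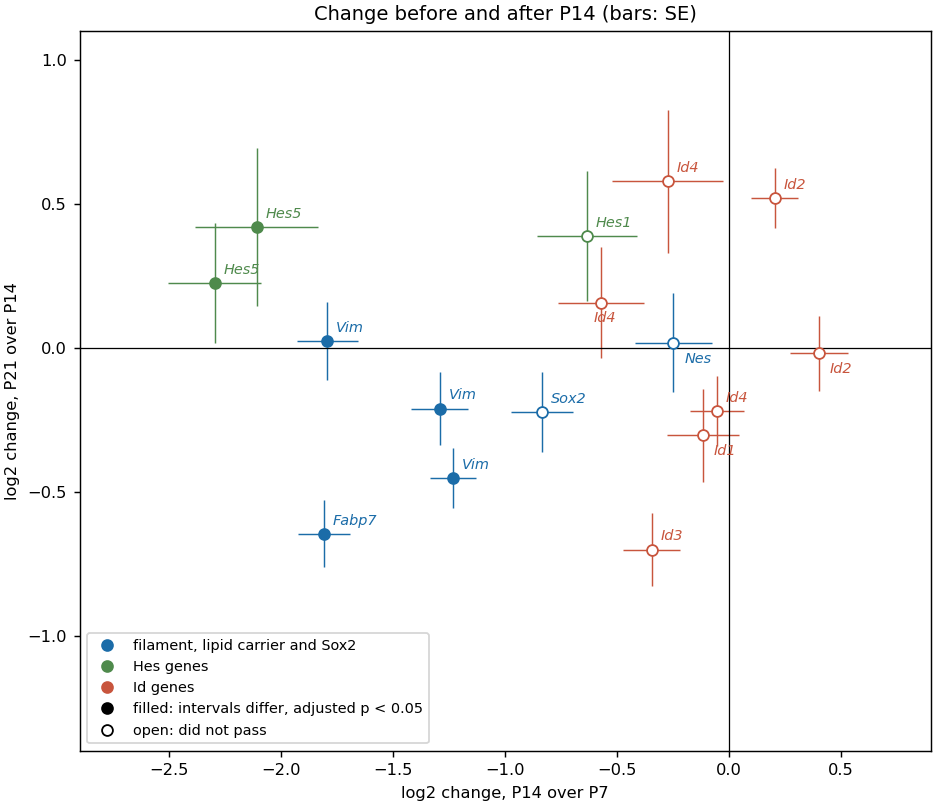
Log2 change from P7 to P14 (x axis) against that from P14 to P21 (y axis) for the 16 tested probe sets, with SE bars, coloured by role. The P14 arrays enter both axes. Filled points, Vim, Fabp7 and Hes5, had different changes in the intervals at an adjusted p under 0.05. Both Hes5 probe sets passed the filter only through P7, so a difference from P7 was built into their being tested. Id3 lies low on the y axis at -0.70 with an x value of -0.35, and Id2 1435176_a_at lies at 0.52 with an x value of 0.20.

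Fabp7 and the brightest Vim probe set followed each other closely across the arrays. For each gene's brightest probe set, the most similar probe sets of other genes among those tested were sought by Pearson correlation of log2 signal over 8 arrays, which are grouped by age. For Fabp7, Vim 1450641_at ranked 2 of 15295 (r = 0.998), behind 1417343_at, a probe set with no gene name here. For Vim 1450641_at, Fabp7 ranked 1. In likeness to Fabp7, the other Vim probe sets ranked 166 (1456292_a_at, r = 0.977) and 563 (1438118_x_at, r = 0.950), Sox2 ranked 500 (r = 0.954), Hes5 1423146_at ranked 758 (r = 0.940), Id3 ranked 1228 (r = 0.912) and Id1 ranked 3457 (r = 0.723). Apart from the match of Fabp7 and Vim, none of the 20 nearest probe sets so listed was a member.

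**Figure D4:**
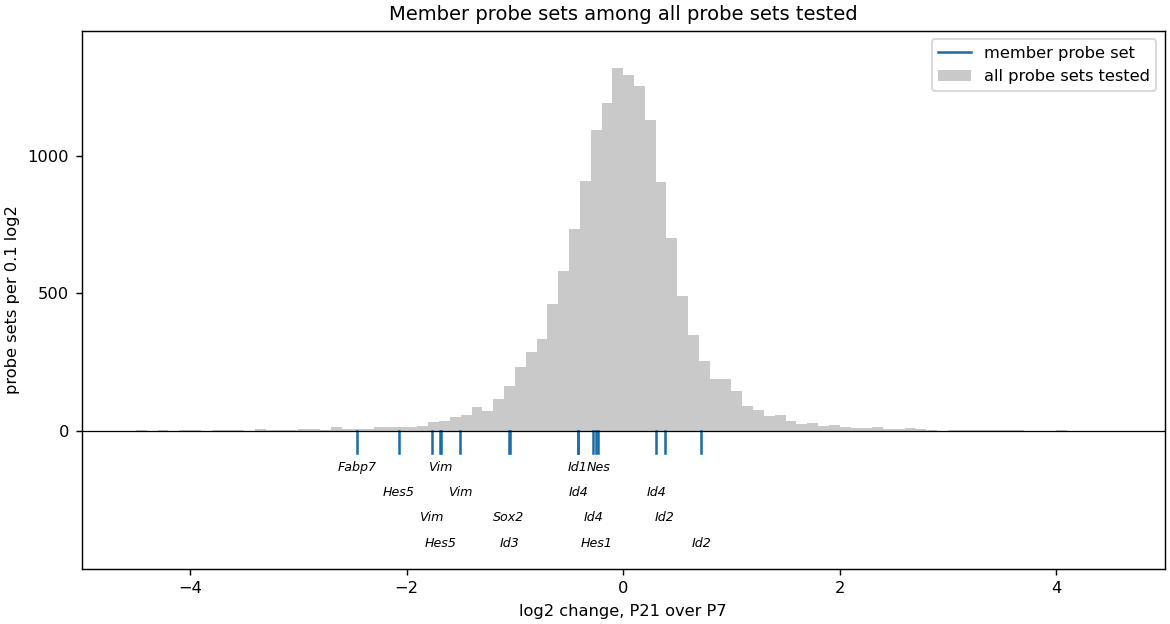
Number of probe sets per 0.1 of log2 change, P21 over P7, for all 15296 tested (grey bars), with the 16 member probe sets as blue ticks under the axis. Fabp7 at -2.46, Hes5 and Vim lie in the lower tail, and Sox2 and Id3 lie at -1.06 and -1.05. The remaining members lie between -0.42 and 0.72. The highest, Id2 1435176_a_at at 0.72, ranked 1208 of 15296 from the most positive change.

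The poly-A control differed between arrays and divides the ages unevenly. The lys control was found on the third P7 array, the second P14 array and the first P21 array, and the dap control on the other P7 arrays and the first P14 array. The phe control was found only on P21 replicate 2 and the trpn control only on P21 replicate 3. Only P21 replicate 1 therefore sets the P21 values in a fit with a block for the poly-A control. With a block for it, 8 member probe sets passed between P21 and P7 in place of 11, and 7 between P14 and P7 in place of 9. Lost between P21 and P7 were Id1 (-0.71, limma adjusted p = 0.0693), Id2 1422537_a_at (0.30, adjusted p = 0.328) and Hes5 1456010_x_at (-1.32, adjusted p = 0.0518). Lost between P14 and P7 were Id2 1422537_a_at (0.37, adjusted p = 0.0765) and Id4 1450928_at (-0.58, adjusted p = 0.0741). Within the arrays with lys, P21 over P7 was -2.60 for Fabp7, -1.74 for Vim 1450641_at, -0.72 for Sox2 and 0.69 for Id2 1435176_a_at on the log2 scale. Each of these values rests on 1 array an age and has no test, and their signs were fixed, since the P21 and P7 arrays did not overlap for these probe sets.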

How the data were processed

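Total RNA of pooled cochlear nuclei was hybridised to Affymetrix oligonucleotide arrays. The deposited values are 1 signal intensity per probe set on a linear scale, made by the authors with GCOS (version not given), per the submitters' processing notes. One P21 label speaks of 2 replicates, the others of 3, and all 3 were used.

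Each array was scaled so that its 2% trimmed mean was 250.1. The 64 control probe sets and those with a mean signal under 50 were left out, and log2(signal + 12.5) was fitted by age over all 8 arrays with limma 3.58.1 (lmFit, eBayes with trend) in R 4.3.3. Two-sided p-values were adjusted by Benjamini-Hochberg over 15296 probe sets and a threshold of 0.05. The fit was tested on simulated data. An exact test of 3 against 3 arrays cannot go below 0.1, so none was used. The number of arrays limits the precision.

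All members are named, and for each gene the probe set of highest mean signal stood for it in the search for like patterns. That search was to use probe sets with 1 gene symbol, which could not be applied, so at most a single unnamed probe set is given. Lists of Notch, BMP and cell type marker genes were not analysed here, for want of gene names. The members and lists were chosen with earlier results of these data known. Alternatives were 2 pseudocounts, 2 filters, 2 scalings, 2 eBayes settings, blocks for replicate number or poly-A control, fits of 2 ages, and leaving out each array.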

Additional observations from a re-analysis of the deposited data

Results flagged for a closer look

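For 6 probe sets of 3 genes, limma's test of the difference itself separated the log2 change before P14 and the one after it, each being more negative before P14. The difference was -1.82 for Vim 1438118_x_at, -0.7801 for Vim 1450641_at and -1.082 for Vim 1456292_a_at. It was -1.164 for Fabp7 1450779_at. For Hes5 it was -2.522 with 1423146_at and -2.53 with 1456010_x_at. Later signals of Hes5 lay in the range of poly-A controls not found on an array. Both Hes5 probe sets passed the filter only through P7, so a difference from P7 was built into their being tested. The P14 arrays enter both changes, and without P14 replicate 1 or without P14 replicate 2 a single member probe set passed.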

How the results depend on the processing

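Of 64 member results (16 probe sets in 4 comparisons), 29 were called, and 15 of these kept their call and direction under every alternative run, while 28 were called neither in the fit reported nor under any alternative. With a block for the poly-A control, 1938 probe sets were called between P21 and P7, 0 between P21 and P14 (2070 at an unadjusted p under 0.05, with limma; 0 members) and 68 for the difference of intervals (1 member). That block leaves P21 replicate 1 alone to set the P21 values. From P14 to P21, 109 probe sets and 0 members were called with no filter, 121 and 0 with no trend, and 198 and 1 in a fit of those ages alone. The difference of intervals called 793 with no trend. With median scaling 77.7% of its calls were positive, against 49.1%.

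Leaving out 1 array gave 4777 to 5682 calls between P21 and P7, 2386 to 4781 between P14 and P7, 0 to 465 between P21 and P14 and 53 to 1181 for the difference of intervals, and 9 to 11, 6 to 9, 0 to 4 and 1 to 6 member calls in the same order. The 2 lowest counts between P14 and P7 (2438 and 2386) came without P14 replicate 1 and 2. Between P21 and P14 there were 39 calls without P14 replicate 1, 0 without P14 replicate 2 (1764 unadjusted), 83 without P21 replicate 2, 109 without P21 replicate 3, 138 without P7 replicate 2 and 182 without P7 replicate 3. The difference of intervals had 93 and 53 without P14 replicate 1 and 2, 814 without P7 replicate 2 and 808 without P21 replicate 3.

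Deviations of same-numbered P7 and P21 arrays correlated at 0.281, -0.0154 and 0.13, and those of differently numbered ones at -0.271 to 0.215. Whether replicate numbers pair the arrays was not tested. With the replicate number as a block 5966, 4406, 323 and 1177 probe sets were called between P21 and P7, P14 and P7, P21 and P14, and for the difference of intervals, with 11, 9, 2 and 6 members. That block lost Id4 1450928_at between P14 and P7 (-0.52, adjusted p = 0.0508) and Id2 1435176_a_at between P21 and P14 (0.51, adjusted p = 0.0546), and Hes1 passed between P14 and P7 (-0.61, adjusted p = 0.0492).

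The sign turned in 10 results, none of them called (adjusted p 0.362 to 0.967). Between P14 and P7 these were Id1 (0.03174 with median scaling, 0.01017 with the replicate block, -0.2083 to 0.0282 with 1 array left out) and Id4 1423259_at (0.09547 with median scaling, -0.14 to 0.0303 with 1 array left out). From P14 to P21, Nes was -0.004922 with quantile normalization, -0.06157 with median scaling, -0.02766 with the poly-A block and -0.1308 to 0.1328 with 1 array left out. Vim 1438118_x_at was -0.05599 with median scaling and -0.08798 to 0.08752 with 1 array left out. With the poly-A block Id4 1450928_at was -0.1468 and Sox2 was 0.09513. With 1 array left out Id2 1422537_a_at was -0.08066 to 0.0541, Hes1 -0.0003696 to 0.7777 and Hes5 1423146_at -0.01399 to 0.4615, and the difference of intervals for Id3 was -0.01095 to 0.72. The cause was not tested. Signals near those of absent controls limit Hes5 after P7, and the stricter filter dropped both of its probe sets. Without any 1 of the P7 arrays 1456010_x_at fell under the filter, so its calls were not checked there and 15 members were tested.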
